A study of Mus musculus with 36 samples.

Results

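Lung RNA of mice given small graphene oxide sheets through the nose (marked S in the labels, which give the letter only) was set against that of mice given only the carrier (marked D), 1 day after the dose. The comparison holds 6 of the 36 libraries of the series, 3 per group, chosen by their sample titles, and covers all 16903 genes with enough reads to be tested out of 46078 in the count table. Graphene oxide is an oxidised form of graphene, the flat carbon sheet, and the series asks whether the width of the sheets changes how the lung responds early and late. All mice were wild type C57BL/6 females, 9 weeks old at day 1. The D and S groups of days 7 and 28, used at the end, were 10 and 13 weeks old. The S mice received 50 μg of sheets in 5% dextrose through the nose, once, and the D mice the same 5% dextrose with 0 μg. Ultrasmall (US) and large (L) sheets of the same dose, also with 3 libraries each at day 1, are used below where a difference between sizes is tested. Small pieces of every lobe were taken after the large airways had been cut away. The labels speak of 4 to 5 animals per group and tie no library to an animal, so the p-values measure the spread between these libraries, which may be technical. The labels also give the light cycle of the animal room, but no hour for dosing or for taking the lungs.

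Most cells of the lung keep time with a feedback loop of transcription factors. Arntl pairs with Clock or Npas2 and switches on genes through short DNA sites called E-boxes, and the products of several of these genes (the Per, Cry, Bhlhe and Nr1d families) switch the loop off again, while Dbp, Tef and Hlf carry the rhythm to other genes through sites called D-boxes. A lung that meets an irritant also makes acute-phase and defence proteins such as Lcn2 and the serum amyloid A proteins, and epithelial cells and macrophages release chemokines such as Cxcl1 and Cxcl5 that draw in neutrophils.

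Total counts were 16154696 to 19623287 per library, so that 1 CPM (a read count scaled to the size of its library, here with TMM factors) rested on 16.2 to 19.6 reads. Defining genes of lung tissue were high in all 6 libraries, with Sftpc of the alveolar type 2 cell at 11658 to 20585 CPM, Ager of the type 1 cell at 2046 to 2676 CPM and Pecam1 of endothelium at 860 to 1145 CPM. The fat gene Adipoq reached 0.186 CPM at most and the thymus gene Rag1 0.248 CPM, whereas the heart muscle gene Myh6 ran from 0 to 42.6 CPM. S replicate 1 stood apart from its group: its log CPM correlated with those of S replicates 2 and 3 at 0.9842 and 0.9809, against 0.9921 between these and 0.9875 to 0.9904 among the D libraries. Transcript length moved with the groups as well. Genes with a longest transcript under 1000 bases (1488 genes) minus those over 5000 bases (3382 genes) had a median log2 level relative to D of -0.41, -0.52 and -0.53 in the S libraries and of 0.01, 0.03 and -0.03 in the D libraries, and the part of length in the results was not tested beyond a fit with the length trend removed.

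In the lungs of day 1, 8 of the 16903 genes passed an adjusted p of 0.05 between S and D (0.0473%), of which 6 were higher (0.0355%) and 2 lower (0.0118%). Of these, 5 belong to the circadian clock: the output factors Hlf and Tef and the repressors Bhlhe40 and Bhlhe41 rose, and the activator Npas2 fell. The other genes that rose were Amer2, whose protein is a scaffold of Wnt signalling, and Dtna, which encodes a part of the dystrophin complex. The remaining gene that fell was Glipr2, whose protein sits at the Golgi. At an unadjusted p under 0.05, without correction for the number of tests, 1916 genes were higher (11.3%) and 1639 lower (9.7%). The median log2 fold change of all genes tested was -0.02.

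Of the clock activators, Npas2 (ENSMUSG00000026077, chromosome 1, 39193731 to 39363236 in GRCm38, the whole annotated gene) stood at 9.62, 10.6 and 10.4 CPM in D and at 1.67, 3.25 and 4.87 CPM in S. The groups did not overlap, and S replicate 1 was the lowest library. Npas2 fell 3.14-fold (log2 fold change -1.65 ± 0.30 SE, n = 3 per group, edgeR quasi-likelihood test with Benjamini-Hochberg adjustment, adjusted p = 0.0262). Its partner Arntl stood at 33.5, 41.7 and 31.6 CPM in D and at 11.2, 18.9 and 24.7 CPM in S. Its groups also lay apart, but the difference did not pass the test (log2 -0.96 ± 0.27, adjusted p = 0.144). Clock, the other partner of Arntl, had a mean of 109.1 ± 7.24 CPM (SD) in D and of 135.7 ± 22.6 CPM in S, with overlapping groups (log2 0.31 ± 0.16). Rora, a nuclear receptor that activates Arntl, had every S library above every D library (0.43 ± 0.14, adjusted p = 0.155). Nfil3, which represses D-box genes although it was listed here, had a log2 value of 0.03 ± 0.34. Of the 6 genes in this list 1 fell and 5 were not called, and the median was 0.14.

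Of the clock repressors, Bhlhe40 (ENSMUSG00000030103, chromosome 6, 108660629 to 108666925) stood at 58.6, 45.5 and 57.1 CPM in D and at 84.7, 111.2 and 104.8 CPM in S, and rose 1.87-fold (log2 0.90 ± 0.16, adjusted p = 0.0262). Its close relative Bhlhe41 (ENSMUSG00000030256, chromosome 6, 145858243 to 145865558) stood at 10.1, 9.22 and 10.1 CPM in D and at 22.5, 19.0 and 18.6 CPM in S, and rose 2.04-fold (1.03 ± 0.20, adjusted p = 0.0367). Both bind E-boxes and shut down their genes, and in both every S library lay above every D library. Bhlhe41 also stands in the list of alveolar macrophage genes, of which it was the member that rose among 14 tested. Per3 stood at 39.4, 37.7 and 32.7 CPM in D and at 75.9, 76.3 and 66.6 CPM in S (log2 1.00 ± 0.21, adjusted p = 0.0611). Per2 stood at 25.6, 27.1 and 22.8 CPM in D and at 54.3, 55.7 and 65.2 CPM in S (1.22 ± 0.33, adjusted p = 0.14). Per2 and Per3, whose proteins block Arntl and its partners, had every S library above every D library, without passing the test. Nr1d2, which silences Arntl, stood at 236, 164 and 148 CPM in S against a mean of 107.4 ± 22.9 CPM (SD) in D, with separate groups (0.77 ± 0.21, adjusted p = 0.138). Per1 went the other way, with overlapping groups (-0.52 ± 0.43). Of the 10 repressors 2 rose, 0 fell and 8 were not called, 6 were higher at an unadjusted p under 0.05, and 6 had all S libraries above all D libraries, which 17.2% of all genes tested had. The median log2 fold change of the list was 0.69.

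Of the clock output factors, Hlf (ENSMUSG00000003949, chromosome 11, 90336536 to 90390895) stood at 26.0, 21.5 and 25.0 CPM in D and at 66.5, 44.8 and 39.9 CPM in S, and rose 2.09-fold (log2 1.06 ± 0.18, adjusted p = 0.0247). Tef (ENSMUSG00000022389, chromosome 15, 81802421 to 81826861) stood at 219, 180 and 188 CPM in D and at 398, 355 and 360 CPM in S, and rose 1.89-fold (0.92 ± 0.18, adjusted p = 0.0353). In both genes S replicate 1 was the highest library and the lowest S library was well above the highest D library. Dbp, the third factor of this family, behaved otherwise: it stood at 23.9, 17.0 and 27.1 CPM in D and at 100.7, 25.0 and 16.9 CPM in S. S replicate 1 alone was high, and the other S libraries lay in or at the edge of the D range (log2 1.07 ± 0.49, adjusted p = 0.217, and -0.11 ± 0.46 without S replicate 1). Nr1d1, a repressor, had the same pattern, at 316, 118.5 and 93.4 CPM in S against 131.4, 84.3 and 129.4 CPM in D. Wee1, a cell cycle kinase under clock control, stood at 14.0, 15.2 and 12.7 CPM in S against 7.03 to 9.49 CPM in D (0.76 ± 0.21, adjusted p = 0.144). Of the 5 genes in the list 2 rose and 3 were not called, and the median was 0.92.

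**Figure D1:**
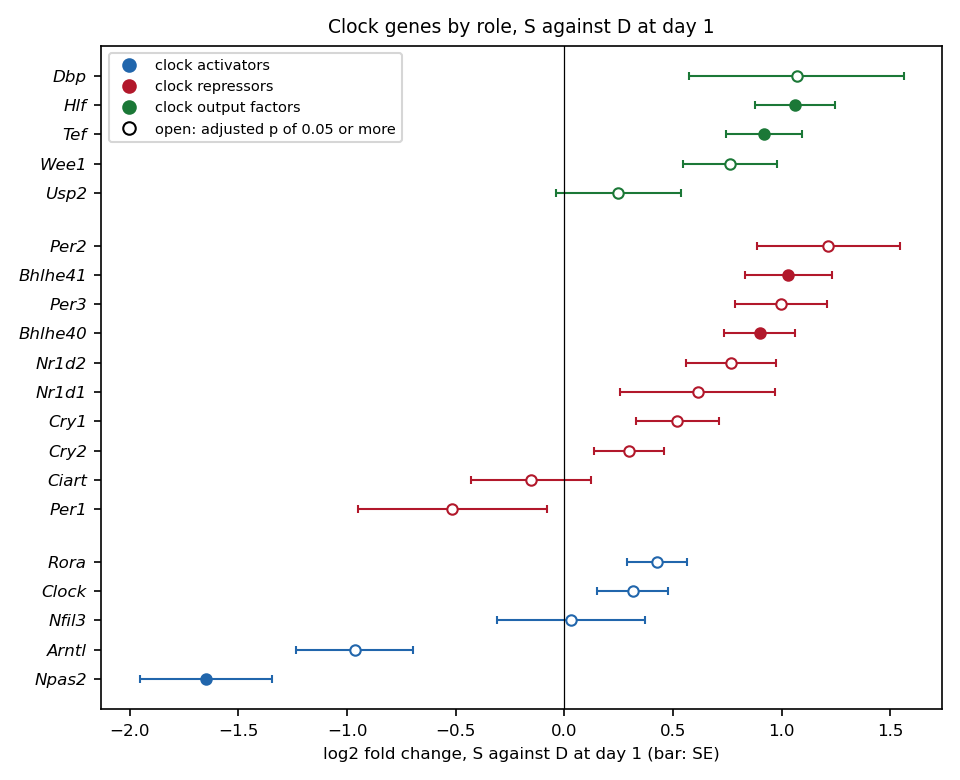
Fitted log2 fold change of S against D at day 1 (x axis) for 20 clock genes of 3 lists (y axis), with bars of 1 SE from the fit to all 36 libraries; filled points passed an adjusted p of 0.05. The filled points are Hlf and Tef (1.06 and 0.92), Bhlhe41 and Bhlhe40 (1.03 and 0.90), and Npas2 at -1.65.

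Promoters of the called genes are shown because 5 of the 8 are clock genes and the clock acts on named sites. RefSeq promoters (build GRCm38.p6) were found for 6 of the 8, namely Hlf, Glipr2, Amer2, Npas2, Tef with a pair of starts, and Bhlhe41. The 250 bases before each start were searched on both strands for 5 motifs: the E-box CACGTG, held by 6.02% of 32851 promoters, the D-box TTANGTAA (2.06%), the Rev-erb/ROR element (0.177%), the C/EBP element TTNNGCAA (9.56%) and the NF-kB element (4.11%). An E-box was present in Tef, at both starts, and in Bhlhe41, and none of the 5 motifs in the windows of Hlf, Glipr2, Amer2 and Npas2. A match is a run of letters and not a measured binding site. The windows of Hlf (chr11:90390918-90391167, minus strand), of the second start of Tef (chr15:81811164-81811413, plus strand) and the part of the Bhlhe41 window that no annotated exon covers (chr6:145865559-145865670, minus strand) read as follows, 5′ to 3′, with the E-box in capitals.
Hlf: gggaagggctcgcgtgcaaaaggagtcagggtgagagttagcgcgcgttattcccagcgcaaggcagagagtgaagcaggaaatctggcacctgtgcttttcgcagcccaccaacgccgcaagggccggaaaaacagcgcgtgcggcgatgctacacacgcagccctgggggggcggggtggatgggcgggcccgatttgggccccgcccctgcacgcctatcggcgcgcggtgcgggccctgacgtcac
Tef: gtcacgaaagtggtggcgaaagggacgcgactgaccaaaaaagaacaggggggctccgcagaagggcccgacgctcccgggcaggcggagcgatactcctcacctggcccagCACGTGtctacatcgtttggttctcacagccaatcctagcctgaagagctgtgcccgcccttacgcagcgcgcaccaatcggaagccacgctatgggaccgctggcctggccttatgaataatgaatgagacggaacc
Bhlhe41: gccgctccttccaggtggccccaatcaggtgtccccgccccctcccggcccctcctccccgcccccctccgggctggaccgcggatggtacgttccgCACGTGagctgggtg

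The E-box began 138 bases before the second start of Tef and 153 before the start of Bhlhe41, a pair of genes that both rose. Hlf, which rose by as much, has no such match in the window shown.

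Outside the clock, Dtna (ENSMUSG00000024302) stood at 44.6, 46.5 and 44.1 CPM in D and at 67.9, 80.8 and 92.9 CPM in S, and rose 1.79-fold (log2 0.84 ± 0.17, adjusted p = 0.0454). Glipr2 (ENSMUSG00000028480, chromosome 4, 43957401 to 43979118) stood at 38.1, 42.0 and 44.5 CPM in D and at 23.2, 27.7 and 28.8 CPM in S, and fell 1.57-fold (-0.65 ± 0.11, adjusted p = 0.0247). In both genes the groups were well apart. Amer2 (ENSMUSG00000021986, chromosome 14, 60378286 to 60381003) had 0 reads in all 3 D libraries and 5, 20 and 12 reads in the S libraries (0.26, 1.12 and 0.656 CPM). Set against a floor of 3 reads over the D group, it was at least 11.7-fold higher in S (adjusted p = 0.0262). The D libraries of the later days were not at 0, with 0.15 to 0.174 CPM at day 7 and 0.164 to 0.247 CPM at day 28. Bhlhe40, Npas2, Tef, Bhlhe41 and Dtna each overlap an annotated gene on the opposite strand, and no source used here gives the strand setting of the counting. Npas2 also overlaps the processed pseudogene Gm3617 on its own strand. Whether the counts of these genes hold reads of the overlapping genes was not tested.

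**Figure D2:**
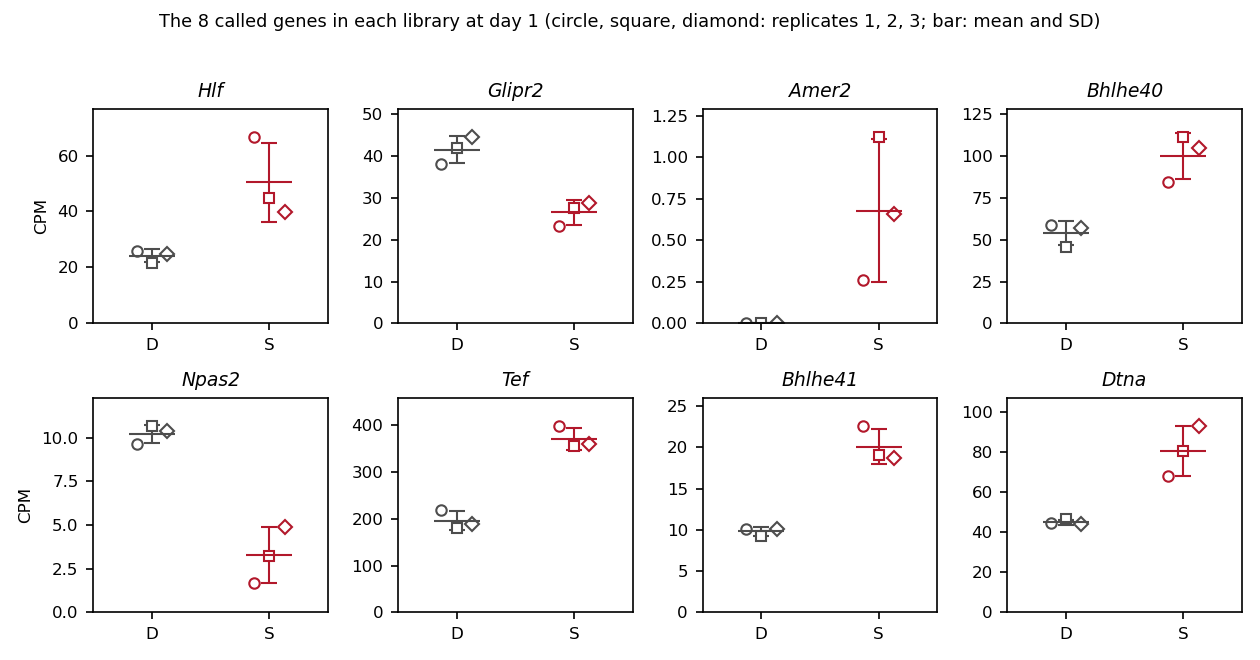
CPM (y axis, from 0) of the 8 called genes in the 3 D and the 3 S libraries of day 1 (x axis), with the mean and SD of each group. No S library falls in the D range of any of these genes, and Amer2 is at 0 in the 3 D libraries.

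All 8 genes were also called when S replicate 1 was left out, among 505 genes called then (2.94%), whereas leaving out any D library or S replicate 2 left 0 calls and leaving out S replicate 3 left 5, of which Hlf, Glipr2, Amer2 and Npas2 belong to the 8. At an unadjusted p under 0.05 these edgeR fits held 2914, 2325 and 2784 genes without D replicates 1, 2 and 3, and 2029 without S replicate 2. With the 6 libraries fitted alone 809 genes were higher (5.18%) and 368 lower (2.35%), with the 12 libraries of day 1 alone 0 (2383 at an unadjusted p under 0.05), with DESeq2 190 and with the length trend removed 10.

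Other genes with separate groups did not pass, and of those given here Spon2 alone came close. Spon2 (ENSMUSG00000037379, chromosome 5, 33198184 to 33218455), which encodes a secreted matrix protein, stood at 49.6, 57.8 and 60.3 CPM in D and at 14.5, 17.4 and 15.8 CPM in S. The groups lay far apart and the S libraries close together, yet the adjusted p was 0.0603 (log2 -1.82 ± 0.38). Timp3, an inhibitor of matrix-degrading enzymes, stood at 1115, 911 and 1119 CPM in D and at 1540, 1931 and 2059 CPM in S (0.81 ± 0.20, adjusted p = 0.111). Zbtb16 and Tsc22d3, both induced by glucocorticoid hormones in many cells, differed in opposite directions. Zbtb16 stood at 12.4, 25.9 and 12.4 CPM in D and at 61.7, 53.4 and 70.6 CPM in S (1.87 ± 0.73, adjusted p = 0.177), and Tsc22d3 at 341, 366 and 355 CPM in D and 230, 207 and 201 CPM in S (-0.74 ± 0.25, adjusted p = 0.157). Of the 11 genes of the glucocorticoid list 2 were higher and 2 lower at an unadjusted p under 0.05, 0 were called, and the median was -0.15.

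Acute-phase and mucosal defence genes were high in S replicates 2 and 3 and not in S replicate 1. Lcn2 (ENSMUSG00000026822, chromosome 2, 32384633 to 32388252), which binds the iron carriers of bacteria, stood at 165, 132.9 and 247 CPM in D and at 144.5, 1081 and 1338 CPM in S. With all 3 S libraries the log2 fold change was 2.23 ± 0.53 (adjusted p = 0.104), and without S replicate 1 it was 2.73 ± 0.45 (adjusted p = 0.00378). Itih4, a plasma protein of the acute phase, stood at 165, 459 and 435 CPM in S against a mean of 133.8 ± 33.9 CPM (SD) in D (1.4 ± 0.30, adjusted p = 0.0699), and Saa1 at 0.0521, 6.44 and 5.80 CPM against 0.177 to 0.258 CPM (4.25 ± 1.10, adjusted p = 0.135). Steap4, a metal reductase, stood at 18.2, 53.9 and 63.7 CPM against 16.3 to 22.6 CPM. In each of these genes S replicate 1 was within or below the D range and the other S libraries were above it. Of the 21 genes of the list 16 were higher at an unadjusted p under 0.05 and 0 lower, 0 were called, and the median was 1.08. Without S replicate 1, 13 were called higher and 0 lower, where 1.76% of 17169 genes were called higher, and the median was 1.5. Leaving out the S library that did not follow the others widens the difference in these genes by itself. Such counts, here and for the lists below, therefore describe S replicates 2 and 3 and are no separate test. List counts were made without S replicate 1 only, and not without the other libraries.

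Of the 4 acute-phase genes with the smallest p, whose promoters were searched in the same way, Lcn2, Saa1 and Steap4 held a C/EBP element, a site of factors that drive the acute phase, and Itih4 held none of the 5 motifs. Steap4 also held an NF-kB element. The window of Saa1, the gene with the largest fold change of the 4 (chr7:46742981-46743230, minus strand, RefSeq, GRCm38.p6), is shown with that element in capitals, 182 bases before the start.
Saa1: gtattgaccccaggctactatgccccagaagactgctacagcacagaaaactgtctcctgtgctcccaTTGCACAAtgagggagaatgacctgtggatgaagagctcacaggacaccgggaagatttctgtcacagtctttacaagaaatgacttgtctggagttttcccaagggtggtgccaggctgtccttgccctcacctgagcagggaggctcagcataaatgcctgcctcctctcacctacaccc

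Several cytokines and chemokines divided the S libraries in the same way. In Lif, Osm, Il1rap and Ccl3 every S library lay above every D library. With Il33, this held for 4 of the 13 acute cytokines tested and for 1 of the 14 Ccl chemokines, beside 17.2% of all genes tested. Il33 (ENSMUSG00000024810, chromosome 19, 29925114 to 29960718), an alarm cytokine held in the nuclei of alveolar type 2 cells, stood at 122.7, 100.7 and 137.9 CPM in D and at 142, 404 and 492 CPM in S. Its groups did not overlap, but S replicate 1 lay just above the D range (log2 1.52 ± 0.32, adjusted p = 0.0611, and 1.90 ± 0.28, adjusted p = 0.00166, without S replicate 1). Il6, an inducer of the acute phase, stood at 0.26, 3.64 and 5.2 CPM in S against 0.373 to 0.568 CPM in D (2.71 ± 0.91, adjusted p = 0.157). Of the 13 acute cytokines tested 6 were higher at an unadjusted p under 0.05 and 0 were called (median 0.59). Without S replicate 1, 4 were called higher, where 1.76% of all genes were. Among them Il1b stood at 16.0, 23.6 and 21.2 CPM in S, across the D range of 15.9 to 20.8 CPM.

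Cxcl5 stood at 0.0521, 4.87 and 6.13 CPM in S against 0.236 to 0.869 CPM in D (2.71 ± 0.82, adjusted p = 0.147), and Cxcl1 at 0.677, 3.36 and 4.27 CPM against 0.473 to 0.722 CPM. Ccl2, which draws monocytes, stood at 0.364, 8.4 and 8.15 CPM against 0.532 to 1.06 CPM, and Ccl20, which draws dendritic cells and lymphocytes, at 0.104, 5.60 and 7.71 CPM against 0.473 to 0.774 CPM. S replicate 1 was the lowest of the 6 libraries in Cxcl5, Ccl2 and Ccl20 and in the D range for Cxcl1. Of the 14 chemokines of the Ccl list 5 were higher and 2 lower at an unadjusted p under 0.05, 0 were called and the median was 0.35. The lower ones were Ccl24 (log2 -1.85 ± 0.56, overlapping groups) and Ccl5 (-0.93 ± 0.38, separate groups). Of the 9 genes listed as neutrophil-attracting chemokines and receptors (Pf4 among them) 3 were higher at an unadjusted p under 0.05 and 0 were called (median 0.87). Without S replicate 1, 3 were called higher, where 1.76% of all genes were. Cxcl15, an epithelial chemokine of the same class, had means of 2339 ± 212 CPM in D and 2294 ± 308 CPM in S (-0.03 ± 0.18).

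Neutrophil markers had a smaller list median than these chemokines and receptors, with or without S replicate 1. Of the 15 tested 0 were called and 0 had an unadjusted p under 0.05, and the median was 0.05. Without S replicate 1 their median was 0.22 and 0 were called, beside a median of 1.21 for the chemokine list. Single markers then ran from -1.13 for Ly6g to 1.27 for Clec4e. S100a8 stood at 25.3, 23.1 and 32.8 CPM in D and at 14.7, 34.9 and 35.3 CPM in S. Ly6g, which rests on few reads, stood at 0.056 to 0.109 CPM in S and 0.0621 to 0.361 CPM in D. Summed over the list, the markers came to 135.3, 271 and 252 CPM in S and to 181, 192 and 255 CPM in D. Cxcr2, the receptor for these chemokines, is a member of both lists. It was highest in S replicates 2 and 3, at 26.0 and 20.4 CPM against 8.69 to 11.2 CPM in D and 8.74 CPM in S replicate 1.

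**Figure D3:**
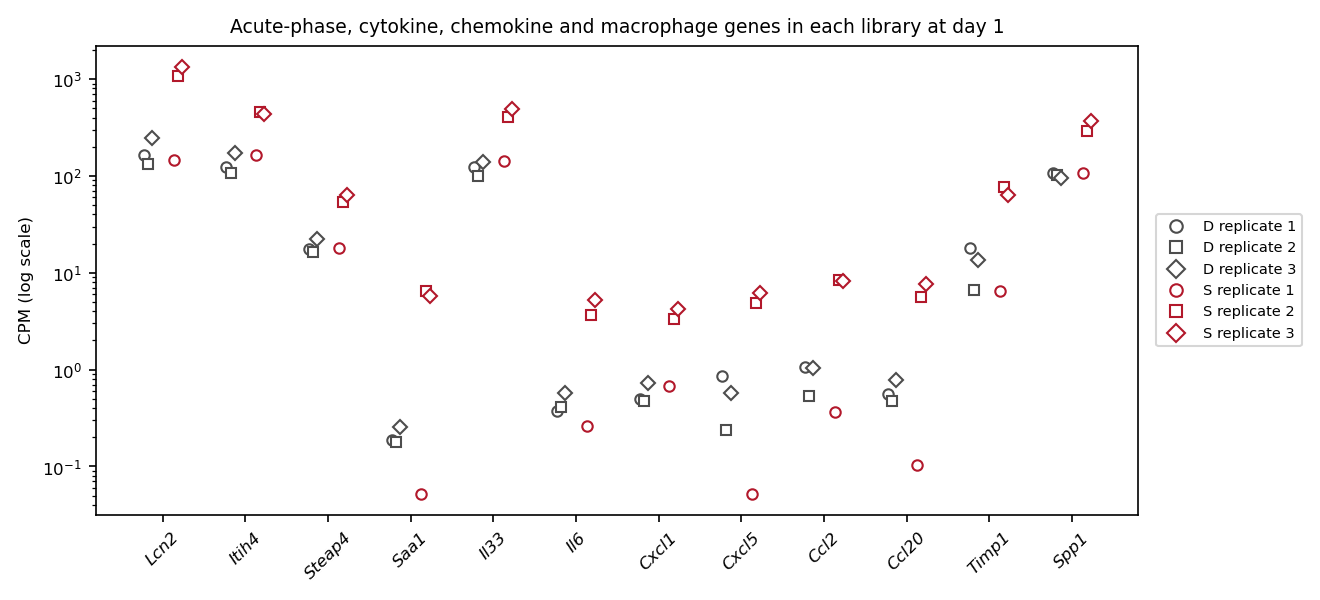
CPM on a log scale (y axis) of 12 acute-phase, cytokine, chemokine and macrophage genes (x axis) in the 6 libraries of day 1, with a symbol per replicate. The 12 were picked from the genes named by the rule, most of them for a small p, and do not stand for their lists. S replicates 2 and 3 lie above the 3 D libraries in each of the 12 genes, while S replicate 1 lies among or below them except for Il33, where it is at 142 CPM against 138 CPM in the highest D library.

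Genes of macrophages that take up particles followed the same libraries. Gpnmb stood at 22.6, 73.7 and 64.8 CPM in S against 17.0 to 29.6 CPM in D (log2 1.22 ± 0.45, adjusted p = 0.168), Ctsk, a lysosomal protease, at 28.3, 112.9 and 117.7 CPM against 32.2 to 38.2 CPM (1.28 ± 0.39, adjusted p = 0.145), and Spp1, a secreted matrix protein of activated macrophages, at 289 and 371 CPM in S replicates 2 and 3 against a mean of 101.7 ± 6.5 CPM (SD) in D, with S replicate 1 at the level of D. Mmp12, the macrophage elastase, stood at 6.14, 9.97 and 12.0 CPM against 4.67 to 7.27 CPM (0.56 ± 0.48, adjusted p = 0.49), and Trem2, a lipid receptor of macrophages, at 3.81 ± 0.596 CPM against 4.62 ± 1.16 CPM. Of the 21 genes 9 were higher and 0 lower at an unadjusted p under 0.05, 0 were called and the median was 0.28. Without S replicate 1, 3 were called higher, where 1.76% of all genes were. Slc7a11, the cystine importer of the Nrf2 antioxidant response, stood at 1.3, 10.2 and 8.64 CPM in S against 1.71 to 1.96 CPM in D, whereas the 16 genes of that response had a median of 0.17, with 3 higher at an unadjusted p under 0.05. Marco, a scavenger receptor of alveolar macrophages, stood at 26.1, 64.2 and 81.5 CPM in S and 28.1 to 43.4 CPM in D. The list of 14 alveolar macrophage genes had a median of 0.03. In bulk tissue, fewer cells of a type and less RNA per cell cannot be told apart.

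Interferon-stimulated genes were lower. Of the 24 members 12 were lower and 0 higher at an unadjusted p under 0.05, 16 had all S libraries below all D libraries, which 15.2% of all genes had, 0 were called, and the median was -0.67. Ifi27l2a stood at 42.7, 56.0 and 56.1 CPM in D and at 31.2, 19.0 and 13.8 CPM in S (log2 -1.27 ± 0.44, adjusted p = 0.165), and Oas1a, an RNA sensor, at 10.4, 7.73 and 6.51 CPM in S against 12.4 to 16.6 CPM. Ifit2, Ifit3 and Ifit3b, of the same list, had log2 values of 0.16, 0.01 and 0.04, and Cxcl9 and Cxcl10 of 0.49 and 0.23. For Ifi27l2a and Oas1a, S replicate 1 was nearest to D.

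Lymphocyte markers were lower in S replicates 2 and 3. Of the 24 T cell and NK cell markers 6 were lower and 0 higher at an unadjusted p under 0.05, 0 were called and the median was -0.62. Cd8a, the co-receptor of cytotoxic T cells, stood at 8.82, 11.4 and 9.29 CPM in D and at 8.02, 4.03 and 5.47 CPM in S (log2 -0.75 ± 0.25, adjusted p = 0.157), and Lck, a kinase of the T cell receptor, at 21.2, 10.1 and 10.3 CPM in S against 22.4 to 28.3 CPM. Of the 20 B cell and plasma cell markers 7 were lower, 0 were called and the median was -0.50. For Cd8a and Lck S replicate 1 was the S library closest to D. The recruited monocyte list held members on both sides: Plac8 stood at 76.0, 76.1 and 77.9 CPM in D and at 49.0, 40.3 and 32.4 CPM in S (-0.92 ± 0.32, adjusted p = 0.162), Vcan had means of 8.36 ± 1.87 CPM in D and 17.1 ± 7.99 CPM in S (1.03 ± 0.37), and 4 of 11 were lower and 1 higher at an unadjusted p under 0.05.

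**Figure D4:**
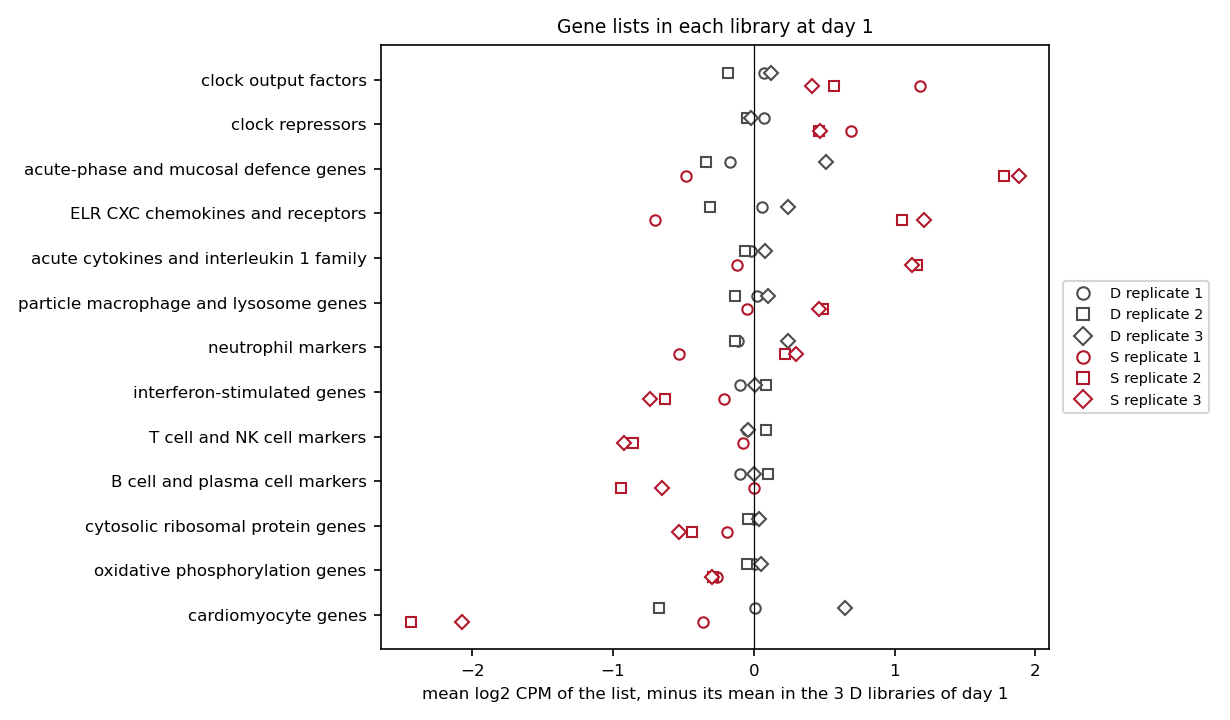
Mean log2 CPM of the tested members of 13 gene lists (y axis) in each of the 6 libraries, minus the mean of the 3 D libraries (x axis). S replicate 1 is at -0.48 for the acute-phase list, where S replicates 2 and 3 are at 1.78 and 1.88, and at 1.18 for the clock output factors, where they are at 0.57 and 0.41.

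The mean level of each list set the S libraries in different orders. For the clock output factors S replicate 1 was the highest at 1.18 log2 above D, followed by replicates 2 and 3 at 0.57 and 0.41, with D between -0.18 and 0.12. For the acute-phase list the values were -0.48, 1.78 and 1.88 in S and -0.34 to 0.51 in D, for the T cell and NK cell list -0.08, -0.86 and -0.92, and for the interferon list -0.21, -0.63 and -0.74. For the clock activators S replicates 1 and 2, at -0.80 and -0.17, lay below the D libraries (-0.07 to 0.05), and S replicate 3, at 0.02, lay among them. Of the 302 genes called higher without S replicate 1, this library lay above the D range in 165, within it in 90 and below it in 47. Of the 203 called lower (1.18%) it lay within the D range in 68, above it in 17 and below it in the remainder, which was the majority.

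Heart muscle transcripts were lower in the same S libraries. The summed level of the cardiomyocyte list was 135.1, 89.1 and 216 CPM in D and 128.8, 67.1 and 69.9 CPM in S, 7 of the 11 members tested were lower at an unadjusted p under 0.05, 0 were called, and the median was -1.51. Myh6 stood at 0 and 0.547 CPM in S replicates 2 and 3, at 16.2 CPM in S replicate 1 and at 5.26 to 42.6 CPM in D. Without S replicate 1, 5 members of the list were called lower, where 1.18% of all genes were. In mice the pulmonary veins within the lung carry heart muscle. The 4 skeletal muscle genes tested had a median of -1.15 and the 10 fat genes tested of -0.50. Of the fat genes 1 was lower at an unadjusted p under 0.05. The mean log2 level of the fat list was -0.17, -0.74 and -0.32 in S and -0.14 to 0.25 in D. Its summed level came to 62.9 to 74.6 CPM in D and 64.6 to 68.4 CPM in S. The part of such tissue in the other results was not tested.

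Genes of protein synthesis and respiration were lower by a small margin. Of the 54 cytosolic ribosomal protein genes 17 were lower and 0 higher at an unadjusted p under 0.05, where 9.7% of all genes tested were lower. In 46 all S libraries lay below all D libraries, which 15.2% of all genes had, 0 were called and the median was -0.32. Of the 51 oxidative phosphorylation genes 12 were lower and 34 lay below D in all S libraries, beside the same shares of all genes. Of these 51, 0 were called and the median was -0.26. Genes of both classes generally have short transcripts, and the median log2 fold change over all short genes was -0.31, against 0.19 over all long genes.

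**Figure D5:**
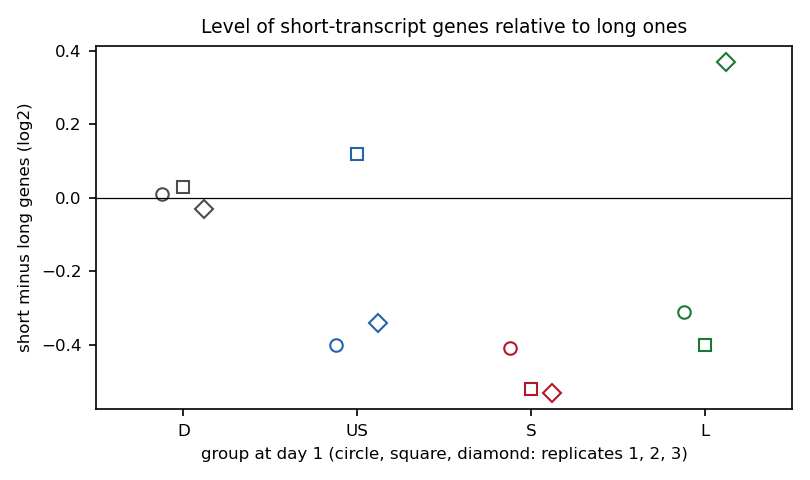
Median log2 level of genes with transcripts under 1000 bases minus that of genes with transcripts over 5000 bases, relative to D (y axis), for the 12 libraries of day 1 by group (x axis). The 3 S libraries sit at -0.41 to -0.53 and the 3 D libraries at -0.03 to 0.03, while US replicate 2 and L replicate 3 lie on the other side of D from their groups, at 0.12 and 0.37.

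Structural genes of the alveolus and of endothelium had small list medians (0.11 for type 1 and 0.08 for endothelial genes). The median of the secretory airway genes was lower. Of the 16 surfactant and alveolar type 2 genes 4 were higher and 1 lower at an unadjusted p under 0.05, with 0 called and a median of 0.14. Slc34a2, a phosphate transporter of type 2 cells, stood at 3001, 2652 and 3054 CPM in D and 3204, 3856 and 4110 CPM in S (log2 0.36 ± 0.14, adjusted p = 0.177). Of the 12 alveolar type 1 genes 4 were higher and 2 lower, with Clic5 at 1141 to 1244 CPM in D and 1618 to 1767 CPM in S (0.49 ± 0.17, adjusted p = 0.159) and Igfbp2 at 85.8 to 120 CPM in D and 55.3 to 60.6 CPM in S (-0.80 ± 0.31, adjusted p = 0.177). Of the 23 endothelial genes 3 were higher and 3 lower. Sele, the selectin that stimulated endothelium shows to leukocytes, stood at 2.24, 1.06 and 1.75 CPM in D and at 2.86, 6.11 and 5.69 CPM in S (1.53 ± 0.46, adjusted p = 0.145), and Klf2, a factor of resting endothelium, at 87.1, 71.2 and 84.4 CPM in D and 64.7, 35.7 and 30.6 CPM in S (-0.89 ± 0.31, adjusted p = 0.165). Of the 14 club and secretory airway genes 2 were higher and 1 lower, with 0 called and a median of -0.48. Scgb3a2, a secretory protein, stood at 508 to 597 CPM in D and 446, 260 and 213 CPM in S (-0.86 ± 0.37), while Kcnq5, a potassium channel, and Cyp4b1, an oxidase, had all S libraries above D (0.60 ± 0.22 and 0.36 ± 0.16).

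Whether these values belonged to small sheets in particular was tested by setting S directly against the other sizes. Against US, 3 genes differed (0.0177%), of which 1 was higher in S (0.00592%) and 2 lower (0.0118%). Glipr2 fell here too (log2 -0.73 ± 0.11, adjusted p = 0.00611), with 23.2 to 28.8 CPM in S and 43.1 to 45.3 CPM in US, which lay at the level of D. In L it stood at 28.8 to 32.8 CPM, also below every D library, and S minus L was -0.21 ± 0.11. Bysl, a ribosome assembly factor, fell (-0.83 ± 0.13, adjusted p = 0.00611), at 12.2, 15.1 and 14.0 CPM in S and 27.4, 22.6 and 23.4 CPM in US. Fbxo32, a ubiquitin ligase of wasting muscle, rose (0.86 ± 0.15, adjusted p = 0.0143), at 39.5, 34.8 and 27.7 CPM in S and 16.9, 19.1 and 20.1 CPM in US. None of the 3 is a clock or an immune gene of the lists. The clock repressors and output factors, with 0 called, had median log2 differences of 0.44 and 0.56 (S minus US), and the clock activators of -0.30. In US replicates 1, 2 and 3, Hlf stood at 34.7, 23.9 and 25.7 CPM and Tef at 385, 177 and 192.5 CPM. The neutrophil markers, with 0 of 15 called, had a median log2 difference of -1.11 between S and US, and the acute-phase genes, with 0 of 21 called, of -0.20. Summed neutrophil markers were 826, 249 and 325 CPM in US, of which replicate 1 was the highest.

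Against L, 0 genes differed by edgeR, and 0 by DESeq2 (1759 and 1842 at an unadjusted p under 0.05). The clock genes called in S against D had small differences from L: Hlf 0.16 ± 0.18, Tef 0.13 ± 0.17, Bhlhe40 -0.08 ± 0.16, Bhlhe41 -0.26 ± 0.19 and Npas2 -0.02 ± 0.32 (log2, S minus L). Their levels in L were 41.7 to 47.5 CPM for Hlf, 314 to 389 CPM for Tef and 1.89 to 4.69 CPM for Npas2. The comparisons of L and S with D share the 3 D libraries. Npas2 had a log2 value of -1.63 ± 0.30 in L against D and -0.56 ± 0.29 in US against D. Dtna stood lower in L than in S, at 39.5 to 60.5 CPM, without passing the test (0.59 ± 0.16, adjusted p = 0.457).

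The same groups were sampled at days 7 and 28. The difference between S and D at day 28 minus that at day 1 was tested as an interaction, which 33 genes passed (0.195%), and the same at day 7, which 0 genes passed by edgeR (1654, or 9.79%, at an unadjusted p under 0.05, and 22 called by DESeq2). Hlf stood at 11.9 to 15.2 CPM in S and 13.9 to 15.3 CPM in D at day 7, and at 13.4 to 18.4 CPM and 13.7 to 15.9 CPM at day 28, where the groups overlapped on both days (interactions of -1.19 ± 0.26, adjusted p = 0.137, and -0.93 ± 0.26, adjusted p = 0.103). Tef stood at 142 to 153 CPM in S and 126.5 to 158 CPM in D at day 7. At day 28 Tef had means of 139.7 ± 4.55 CPM (SD) in S and 119.4 ± 4.42 CPM in D, and Npas2 stood at 12.2 to 14.0 CPM in S and 20.4 to 24.2 CPM in D. In both the groups lay apart in the direction of day 1, and neither was called at day 28 (log2 0.23 and -0.80). Among the 8 genes Amer2 passed the interaction at day 28 (-7.34, adjusted p = 0.0478), a value that rests on the D libraries at 0 at day 1.

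Bhlhe41 kept its level at all 3 times. It stood at 19.3, 16.6 and 21.6 CPM in S and 9.76, 12.0 and 9.05 CPM in D at day 7, and rose there as well (log2 0.90 ± 0.20, adjusted p = 0.0342, where 0.45% of genes were called). At day 28 it stood at 17.6, 15.7 and 19.6 CPM in S and 7.98, 9.74 and 8.81 CPM in D, and again rose (0.99 ± 0.20, adjusted p = 0.0197, where 0.237% were called). Every S library of the 3 days lay above every D library of the same day, and the interactions with day 1 were -0.13 ± 0.28 and -0.04 ± 0.28. These comparisons use separate D libraries at each day.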

How the data were processed

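RNA from lung pieces was sequenced from stranded poly(A) libraries, and RNA with an integrity number under 8 had been discarded, per the labels' protocols. Values are raw read counts, deposited as 1 table of Ensembl genes by 36 libraries. Tools named, without roles, in the submitters' processing notes are StringTie 1.3.3, featureCounts 1.5.1, STAR 2.5.1b, CASAVA and bcl2fastq 2.19.1.403, with the builds GRCh37 and GRCm38. GRCm38 was used here, since 99.86% of the 45229 genes found in GENCODE vM21 had a deposited position that overlapped it. The authors' deposited TPM values served as an alternative. The authors also deposited FPKM values and a coverage signal, which no result here uses.

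Genes were filtered with filterByExpr, scaled by TMM and fitted in edgeR 4.0.16 (R 4.3.3) with a mean per group over all 36 libraries. Contrasts were tested by quasi-likelihood (two-sided) and adjusted by Benjamini-Hochberg over the 16903 genes tested, with a threshold of 0.05. The SE is the fold change divided by the root of F. On simulated counts the fit was checked against known fold changes. CPM values are means ± SD, n = 3. No libraries of a group agreed within sampling noise (chi-square per degree of freedom of at least 6.114).

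The comparison, the 40 gene lists (646 genes, 4 not found by symbol) and the rule for named genes were chosen with earlier results of these data known. Lists are described by counts and medians. Named genes were the called genes, the 8 largest and 8 smallest uncalled fold changes with separate groups, at least 1 CPM and an unadjusted p under 0.05, and up to 4 list members with the smallest p, plus Cxcl5, Mmp12 and Arntl. Other members named (among them Per2, Clock, Nfil3, Per1, Nr1d1, Il1b, Cxcl15, Trem2 and the neutrophil markers) were chosen after their values were seen, and a few list members are not reported by name here. Alternatives were RLE scaling, no filter, a replicate block, DESeq2 1.42.0, fits of fewer libraries, limma 3.58.1 on log2(TPM + 1) or log2(TPM + 0.1) with a minimum mean of 1 TPM, and each library left out in turn. An offset for transcript length, known for 99.6% of the genes tested, was chosen after seeing the data.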

Additional observations from a re-analysis of the deposited data

Results flagged for a closer look

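The difference between S and D differed between day 28 and day 1 for 33 genes by the edgeR interaction test (6 with a higher and 27 with a lower value at day 28), and 11 of them are named here with the log2 difference of the 2 effects. The clock repressors Cry1 and Per2 had values of -1.84 (adjusted p = 0.00135) and -2.20 (adjusted p = 0.0425). Cry1 stood at 14.9, 18.3 and 15.6 CPM in D and 16.4, 25.1 and 28.6 CPM in S at day 1, and at 41.0, 39.4 and 42.7 CPM in D and 16.0, 17.4 and 15.9 CPM in S at day 28, so that the D group differed most between the days. The chaperones Hspa8 and Hsph1 had values of -1.60 (adjusted p = 0.00135) and -1.76 (adjusted p = 0.0405), with Hspa8 at 1710 to 2154 CPM in D and 810 to 896 CPM in S at day 28. The value was -1.75 for Gm15459, whose symbol is that of a predicted gene, and -7.34 for Amer2, which was at 0 in D at day 1. Higher values at day 28 were found for Athl1 (0.79), Lrrc29 (1.4), the urea transporter Slc14a1 (1.52), 0610040B10Rik (2.28) and the antibody segment Igkv4-72 (4.06, adjusted p = 0.049). Igkv4-72 stood at 11.2 CPM in S replicate 1 of day 28, against 2.02 and 1.54 CPM in replicates 2 and 3.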

How the results depend on the processing

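For S against D the 8 calls became 31 with no filter on low counts, 1177 with only the groups compared, 0 with only the libraries of day 1, 2, 3 and 5 with limma on log2(TPM + 1), on log2(TPM + 0.1) and on log2(TPM + 1) without a filter, and 190 with DESeq2. They were 10 with RLE and with the length trend removed, and 0 to 505 with 1 library left out. For S against US the 3 calls became 0 with only the groups compared, with only day 1 and with limma, 139 with DESeq2, and 1 to 30 with 1 library left out. S against L had 0 calls under every alternative run. The interaction at day 7 had 2 calls with no filter, 1 with only the groups compared, 22 with DESeq2 and 0 to 7 with 1 library left out. The 33 calls of the interaction at day 28 became 10 with the replicate block, 2624 with only the groups compared, 7 with limma and 381 with DESeq2, and 3 to 318 with 1 library left out, the highest without S day 1 replicate 1. The cause of these changes was not tested.

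Of the genes named by the rule 1 changed direction, Dbp, whose log2 fold change ran from -0.11 without S replicate 1 to 1.48 without S replicate 3. Of the other genes, Nr1d1 also changed direction without S replicate 1 (-0.12), and Cxcl15 and Ifit3, both near 0, came to 0.07 and -0.01. Without S replicate 1, 49 genes named by the rule passed the threshold that had not, and with only the groups compared 39 did. Leaving out D replicate 1, 2 or 3 or S replicate 2 took all 8 calls away, with edgeR adjusted p values up to 0.226. None of the 8 changed direction under any setting run, and the log2 fold changes ran, for example, from 0.89 to 1.26 for Bhlhe41, from 0.81 to 1.21 for Hlf, from -2.06 to -1.21 for Npas2 and from -0.71 to -0.55 for Glipr2, but from 0.53 to 7.24 for Amer2. Samples with the same replicate number in S and D did not deviate together (correlations of -0.056, -0.091 and -0.198). This gave no sign that the numbers pair them, but 3 libraries per group cannot exclude a shared batch. The replicate block gave 7 calls in S against D, 3 in S against US and 0 in S against L and in the interaction at day 7. With 16.2 to 19.6 reads at 1 CPM, genes such as Cxcl5, Il6 and Saa1 rest on few reads in D, and their fold changes are imprecise.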

Other observations

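Genes of matrix remodelling and airway cilia gave mixed values. Of the 20 extracellular matrix genes 3 were higher and 1 lower at an unadjusted p under 0.05, with a median log2 fold change of 0.21. Spon2, the lower gene, and Timp3, a higher one, are described above. Lox, which cross-links collagen, stood at 77.6, 91.3 and 97.7 CPM in D and at 117.6, 183 and 186 CPM in S (0.87 ± 0.28, adjusted p = 0.155 by edgeR), and Timp1 at 18.1, 6.68 and 13.4 CPM in D and 6.45, 77.8 and 64.3 CPM in S. The fibrillar collagens Col1a1, Col1a2 and Col3a1 had values of -0.30, -0.08 and -0.14. Of the 16 motile cilium genes tested 2 were higher and 2 lower at an unadjusted p under 0.05, 0 were called and the median was -0.10. The axonemal genes Hydin and Dnah9 had values of 0.61 ± 0.20 and 0.42 ± 0.16, and Dnah5 and Dnah11 of 0.15 ± 0.15 and 0.13 ± 0.18. Tppp3, a gene of ciliated cells, stood at 257, 270 and 304 CPM in D and 244, 106.5 and 83.3 CPM in S (-0.94 ± 0.33, adjusted p = 0.165). Hbb-bs, a globin gene of red blood cells, ran from 301 to 1021 CPM within S. Ereg, a ligand of the epidermal growth factor receptor, stood at 0.312, 3.36 and 2.95 CPM in S and 0.0621 to 0.258 CPM in D.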
